A study of Bos taurus with 15 samples.

Results

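The genes of glycolysis, the pyruvate dehydrogenase complex, the citrate cycle and the pentose phosphate pathway were examined in bovine oocytes. They were taken by symbol from a list of 43 enzymes, of which 40 are named in the table of 24616 genes. No row carries the symbol ENO1, DLAT or RPE. Enough counts for testing were present for 28 of the 40, and the other 12 were HK2, PFKL, PFKM, PFKP, GAPDH, ENO2, IDH2, IDH3B, IDH3G, OGDH, DLST and TKT.

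Vitrification is cooling so fast that water sets as a glass and not as ice, and the study varied its coolant and the strength of the cryoprotective agent. There were 3 libraries each of oocytes vitrified in liquid helium with cryoprotectant at 5.6 M, in liquid helium at 6.6 M, in liquid nitrogen at 5.6 M and in liquid nitrogen at 6.6 M, and 3 of fresh oocytes that were not vitrified. All 15 libraries came from Bos taurus ovaries, and every group shared 22 to 24 h of in vitro maturation at a temperature of 38.5 °C and removal of cumulus cells with hyaluronidase. The series title calls the oocytes immature while the sample labels call them in vitro matured. RNA was extracted from single cells and amplified. The sources used here give no breed, animal age, warming method or time between warming and lysis.

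Glycolysis splits glucose into pyruvate in the cytosol, the pyruvate dehydrogenase complex turns pyruvate into acetyl-CoA in mitochondria, and the citrate cycle oxidises it to feed the respiratory chain. The pentose phosphate pathway branches off at glucose 6-phosphate and yields NADPH and ribose phosphate. Mammalian oocytes are known to use little glucose by glycolysis and to depend on pyruvate, much of which the surrounding cumulus cells supply, and on its oxidation in mitochondria.

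Libraries held 1601519 to 8569618 counts, and depth went with the coolant. The 6 helium libraries had 6346848 to 8569618 counts, 5 nitrogen libraries and the 3 fresh libraries had 1601519 to 2822837, and nitrogen 6.6 M library 3 had 7392972. Of 14 oocyte markers 12 were in the table, all with counts, and they summed to 5297 to 10533 CPM (counts as a share of the library total, not TMM-scaled). Of 20 cumulus and granulosa markers 18 were in the table, FSHR and FOXL2 at 0. Their sum was 654 CPM in helium 6.6 M library 2 and 366 to 442 CPM in the other helium libraries, against 388 to 425 CPM in nitrogen libraries and 393, 537 and 389 CPM in fresh libraries 1, 2 and 3. Blood and immune markers, 7 of 8 in the table and CD14, HBB and TYROBP at 0, summed to at most 8.11 CPM. Helium 6.6 M library 2 and fresh library 2 are singled out in the results below, but the other fresh libraries also moved them. The members' median deviation from their group mean (log2 CPM) was -0.23 in fresh library 1, 0.14 in fresh library 2 and 0.09 in fresh library 3. In helium 6.6 M library 2 it was 0.20. Nothing in the labels says that libraries of a group came from separate animals or cultures, so p-values measure only the spread between these libraries. Each value is relative to the other transcripts of its library and says nothing of RNA per oocyte.

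Levels below are in scaled FPKM, that is, counts divided by gene length and by library size after trimmed-mean (TMM) scaling. This puts genes and libraries on one scale. The RNA was amplified, and what amplification or gene annotation adds to differences between genes was not tested. The order of levels ran across pathways and not along them. RPIA, the isomerase that makes ribose 5-phosphate, averaged 650.3 ± 86.2 scaled FPKM and CS, citrate synthase, 583 ± 199 (SD, n = 15). They ranked 173 and 201 among all genes in the table by mean level, and RPIA was the higher of the pair in only 10 of 15 libraries. Next came SUCLG2 at 221 ± 25.2, FH at 158 ± 24.8, PGD at 90.3 ± 21.6, SUCLA2 at 71.9 ± 12.9 and PDK3 at 64.0 ± 8.37 scaled FPKM. CS exceeded SUCLG2 in 15 of 15 libraries, SUCLG2 exceeded FH in 14 and FH exceeded PGD in 14, whereas PGD exceeded SUCLA2 in 11 and SUCLA2 exceeded PDK3 in 12. DLD, PDHX, IDH3A and PGAM1 followed at 37.1, 32.5, 30.5 and 28.0 scaled FPKM and did not separate: each exceeded the next in 8 to 10 libraries.

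**Figure D1:**
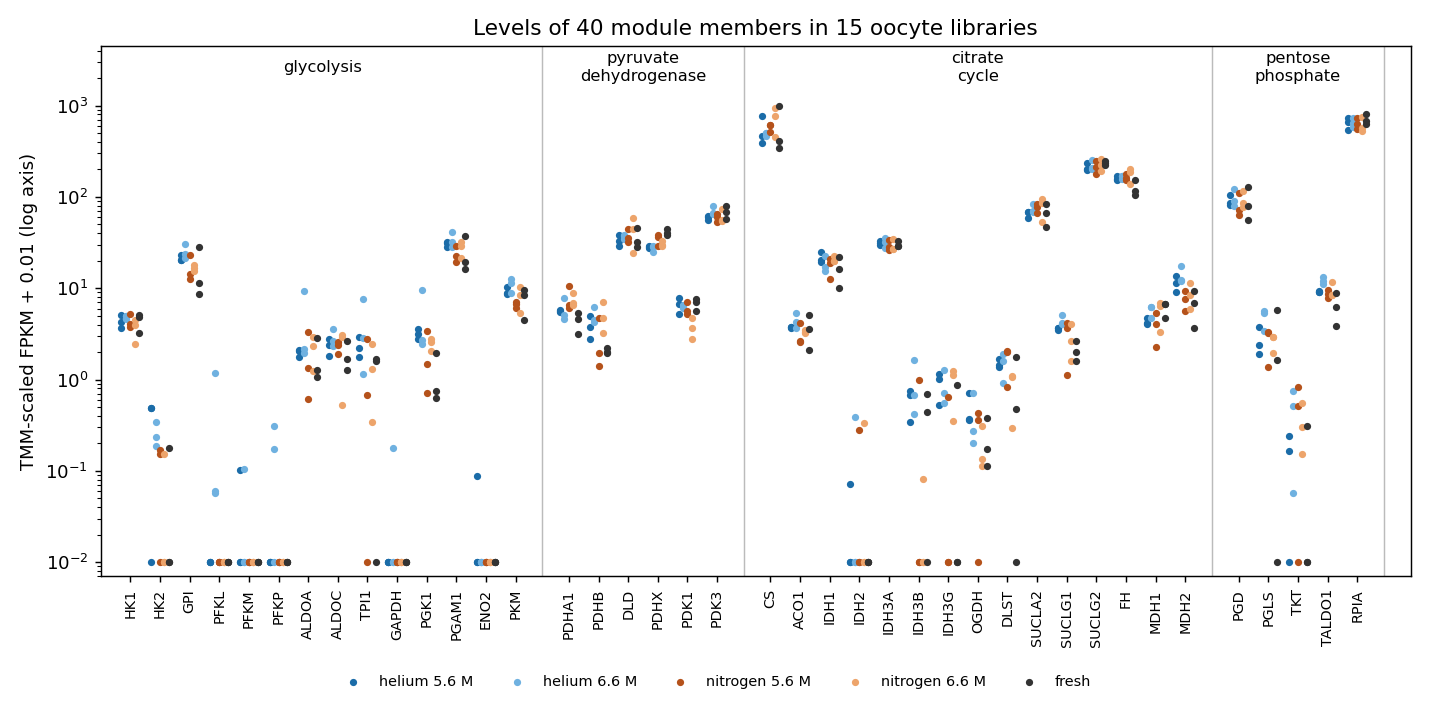
Level of each of the 40 members in every library, as TMM-scaled FPKM plus 0.01 on a log axis, by pathway and coloured by group; each point is 1 library. RPIA and CS stand highest, and the phosphofructokinase genes PFKL, PFKM and PFKP sit at the bottom, where 0.01 means no count.

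Summed over members, glycolytic transcripts were low in relation to those of the citrate cycle. The citrate cycle sum rests mainly on CS, SUCLG2, FH and SUCLA2, while IDH2, IDH3B, IDH3G and OGDH each averaged under 1 scaled FPKM. The 14 glycolytic members in the table summed to 72.5 ± 18.8 scaled FPKM in vitrified libraries and 58.4 ± 25.1 in fresh libraries (SD, n = 12 and 3). The 15 citrate cycle members summed to 1115 ± 179.5 in vitrified libraries and 1078 ± 393 in fresh libraries. Without CS that sum was 532 ± 32.4 in vitrified libraries and 492 ± 46.3 in fresh libraries. The sums rest on the rows that carry these symbols and so leave out enzymes, described below, whose rows carry none. Of these the row described as glyceraldehyde-3-phosphate dehydrogenase alone averaged 49.7 scaled FPKM over the 15 libraries.

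The first step of glycolysis, phosphorylation of glucose, was represented by HK1 at 2.45 to 5.19 scaled FPKM, while HK2 had 46 counts over all libraries. In each library, HK1 measured 3.71, 5.14 and 4.31 scaled FPKM in helium 5.6 M libraries, 4.98, 4.93 and 4.57 in helium 6.6 M libraries, 5.19, 4.03 and 3.71 in nitrogen 5.6 M libraries, 3.93, 4.44 and 2.45 in nitrogen 6.6 M libraries and 3.20, 5.09 and 4.83 in fresh libraries. HK1 exceeded HK2 in 15 of 15 libraries, with means that differed 27.9-fold. GPI, which turns glucose 6-phosphate into fructose 6-phosphate, averaged 19.2 ± 6.14 scaled FPKM. The committing step, phosphofructokinase, had almost no counts: PFKM had 4 and PFKP 9 in all libraries together. PFKL had 27 counts, of which 25 lay in helium 6.6 M library 2 and the other 2 in the other helium 6.6 M libraries. It was 0.0510, 1.17 and 0.0475 scaled FPKM in the helium 6.6 M libraries and 0 in the other 12. No count of the 3 genes was found among 6069046 in the fresh libraries, a depth at which 3 counts make 0.494 CPM, so lower levels were not detectable (counting error only).

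Further down glycolysis, ALDOA and ALDOC, aldolases that split fructose bisphosphate, averaged 2.41 ± 2.04 and 2.30 ± 0.764 scaled FPKM. ALDOA was 2.12, 2.04 and 1.75 scaled FPKM in helium 5.6 M libraries, 2.16, 9.30 and 1.93 in helium 6.6 M libraries, 1.33, 0.596 and 3.29 in nitrogen 5.6 M libraries, 2.88, 2.31 and 1.23 in nitrogen 6.6 M libraries and 1.26, 2.85 and 1.06 in fresh libraries. The value of 9.30 in helium 6.6 M library 2 stood apart from the other 14, which reached at most 3.29, and ALDOC exceeded ALDOA in 10 of 15 libraries. PGAM1, phosphoglycerate mutase, was the highest glycolytic member at 16.3 to 41.0 scaled FPKM. PKM, pyruvate kinase, ranged over 4.45 to 12.7, PGK1, phosphoglycerate kinase, over 0.621 to 9.61, and TPI1, triose phosphate isomerase, over 0 to 7.69 scaled FPKM. ENO2, an enolase gene, had 1 count in all.

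The row named GAPDH is not described as that enzyme. It lies on UMD3.1 chromosome 11, 43948906 to 43949800 (ENSBTAG00000018554), is described in the table as an uncharacterized protein and had 1 count in all libraries together. A row with no symbol (ENSBTAG00000014731, chromosome 5, 104237902 to 104241979), described as glyceraldehyde-3-phosphate dehydrogenase, measured 26.6 to 92.8 scaled FPKM. Rows without a symbol were likewise described as alpha-enolase (ENSBTAG00000013411), with 1.01 to 10.2 scaled FPKM, as the acetyltransferase of the pyruvate dehydrogenase complex (ENSBTAG00000010709), with 3.62 to 7.64, and as ribulose-phosphate 3-epimerase (ENSBTAG00000047806), with 49.2 to 113. These 4 rows are the enzymes of the listed names GAPDH, ENO1, DLAT and RPE by description alone, are not counted among the members and are given separately.

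Within the pyruvate dehydrogenase complex, the shared and tethering parts were higher than the decarboxylating subunits. DLD, the dihydrolipoamide dehydrogenase that the complex shares with others, was 38.4, 28.9 and 32.8 scaled FPKM in helium 5.6 M libraries, 34.8, 37.9 and 37.5 in helium 6.6 M libraries, 32.1, 35.8 and 45.0 in nitrogen 5.6 M libraries, 24.4, 44.2 and 58.0 in nitrogen 6.6 M libraries and 32.0, 28.1 and 46.2 in fresh libraries. PDHX, the component that tethers DLD to the complex, averaged 32.5 ± 5.77 scaled FPKM, and DLD exceeded it in 10 of 15 libraries. PDHA1 and PDHB, the subunits that decarboxylate pyruvate, averaged 6.20 ± 1.82 and 3.72 ± 1.69 scaled FPKM. PDHX exceeded PDHA1 in 15 of 15 libraries, with a 5.24-fold ratio of means, and PDHA1 exceeded PDHB in 15 of 15. Of the kinases that switch the complex off, PDK3 measured 60.8, 62.5 and 56.1 scaled FPKM in helium 5.6 M libraries, 67.4, 79.7 and 65.3 in helium 6.6 M libraries, 60.7, 64.3 and 53.3 in nitrogen 5.6 M libraries, 55.1, 73.8 and 56.0 in nitrogen 6.6 M libraries and 57.6, 68.9 and 78.7 in fresh libraries. PDK3 was 10.9-fold above PDK1 by ratio of means and higher in 15 of 15 libraries.

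In the citrate cycle, the subunits of one enzyme differed widely. IDH3A, the catalytic subunit of the NAD-dependent isocitrate dehydrogenase, was 33.3, 29.6 and 31.4 scaled FPKM in helium 5.6 M libraries, 27.9, 35.4 and 32.1 in helium 6.6 M libraries, 28.4, 34.1 and 26.1 in nitrogen 5.6 M libraries, 26.9, 26.8 and 34.9 in nitrogen 6.6 M libraries and 28.9, 32.9 and 29.0 in fresh libraries. Its coefficient of variation of 10.2% over 15 libraries was the smallest of the 28 tested members. IDH3B and IDH3G, the other subunits, had 75 and 79 counts in all, and IDH3A exceeded them 69.3-fold and 48.9-fold by ratio of means and in 15 of 15 libraries. SUCLG2 and SUCLA2, alternative beta subunits of succinyl-CoA ligase that give GTP or ATP, likewise far exceeded SUCLG1, the alpha subunit that both need. SUCLG2 was 197, 233 and 201 scaled FPKM in helium 5.6 M libraries, 206, 255 and 201 in helium 6.6 M libraries, 212, 178 and 248 in nitrogen 5.6 M libraries, 258, 191 and 224 in nitrogen 6.6 M libraries and 222, 250.3 and 235 in fresh libraries. SUCLG2 exceeded SUCLA2 3.07-fold and SUCLG1 69.6-fold by ratio of means, in 15 of 15 libraries each. OGDH and DLST, core parts of the 2-oxoglutarate dehydrogenase complex, had 99 and 132 counts in all.

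Outside the mitochondrion, IDH1 and ACO1 are the cytosolic isocitrate dehydrogenase and aconitase and MDH1 the cytosolic malate dehydrogenase. IDH1 averaged 18.8 ± 3.91 scaled FPKM while IDH2, its mitochondrial counterpart, had 11 counts in all. MDH2, the mitochondrial malate dehydrogenase, exceeded MDH1 in 13 of 15 libraries at 9.65 ± 3.59 scaled FPKM, against 5.10 ± 1.38 for MDH1. ACO1 averaged 3.64 ± 0.853 scaled FPKM.

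In the pentose phosphate pathway, RPIA exceeded PGD, an NADPH-forming dehydrogenase, 7.20-fold by ratio of means. PGD in turn exceeded PGLS, the lactonase that acts before it, 29.7-fold, each in 15 of 15 libraries. TALDO1, transaldolase, averaged 9.14 ± 2.33 scaled FPKM. TKT, transketolase, had 54 counts in all, while TKTL1, a transketolase-like gene outside the list, ran at 15.1 to 21.1 scaled FPKM.

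Across the 12 vitrified libraries and the 3 fresh libraries, 0 of the 28 tested members passed edgeR's quasi-likelihood test at an adjusted p of 0.05, where 0.509% of the 8441 tested genes passed. At an unadjusted p under 0.05 there were 6 members, 5 of them higher in vitrified oocytes, that is 21.4% of the 28 against 13.6% of all genes. The median log2 fold change of the members was 0.22, with 19 of 28 above 0, beside -0.03 over all genes. PGK1 and PDHB, which are among the 5 higher members, had enough counts for testing only through vitrified libraries. So did ALDOA, ALDOC, TPI1, SUCLG1 and PGLS. Their higher direction was favoured by that filter and adds no support to these counts or to the median. Leaving out fresh library 1, 2 or 3 gave a median of 0.09, 0.32 or 0.03. With depth class as a term, 3 in place of 6 members had an unadjusted p under 0.05. Depth class differed within a group only in nitrogen 6.6 M oocytes, so that fit rests on library 3 of that group. DESeq2, run as an alternative, called 1 member, PDHX, where it called 3.07% of the 6150 genes to which it gave an adjusted p. ALDOA, ALDOC, TPI1, PGK1, PDHB, SUCLG1, MDH1 and PGLS got none and could not be called by it. Only PDHX showed no overlap between vitrified and fresh libraries, as did 2.03% of all genes in either direction. All comparisons with fresh oocytes share the same 3 fresh libraries.

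The pyruvate dehydrogenase complex held 3 of those 6 members, in opposite directions. PDHX (ENSBTAG00000018261, UMD3.1 chromosome 15, 66231837 to 66307403) measured 28.6, 29.1 and 27.9 scaled FPKM in helium 5.6 M libraries, 28.5, 28.9 and 25.1 in helium 6.6 M libraries, 29.3, 36.4 and 38.4 in nitrogen 5.6 M libraries, 33.0, 30.1 and 28.7 in nitrogen 6.6 M libraries and 38.6, 40.1 and 45.0 in fresh libraries. Each of the 12 vitrified libraries lay below the lowest fresh one, by a margin of 38.4 against 38.6 at the closest. PDHX averaged 30.3 ± 3.78 scaled FPKM in vitrified libraries and 41.2 ± 3.37 in fresh libraries (log2 fold change -0.45, SE 0.13, adjusted p = 0.129, edgeR). DESeq2 gave it a log2 fold change of -0.46 with an adjusted p of 0.0237. With only the 8 libraries under 4000000 counts, 5 nitrogen and 3 fresh, it was -0.32 (edgeR unadjusted p = 0.114), and with depth class as a term -0.37.

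PDHA1 (ENSBTAG00000019852, UMD3.1 chromosome X, 130874454 to 130897343) measured 5.54, 5.70 and 5.81 scaled FPKM in helium 5.6 M libraries, 4.63, 7.80 and 5.05 in helium 6.6 M libraries, 6.51, 6.13 and 10.6 in nitrogen 5.6 M libraries, 8.79, 6.93 and 6.50 in nitrogen 6.6 M libraries and 4.65, 5.31 and 3.14 in fresh libraries. It averaged 6.66 ± 1.69 scaled FPKM in vitrified libraries and 4.37 ± 1.11 in fresh libraries (log2 fold change 0.60, SE 0.24, adjusted p = 0.262, edgeR). The highest fresh value, 5.31, lay above 2 of the 12 vitrified values. PDHB (ENSBTAG00000021724, UMD3.1 chromosome 22, 43461214 to 43466626) measured 2.76, 3.72 and 5.01 scaled FPKM in helium 5.6 M libraries, 4.48, 6.18 and 4.26 in helium 6.6 M libraries, 1.41, 4.73 and 1.94 in nitrogen 5.6 M libraries, 7.12, 3.25 and 4.75 in nitrogen 6.6 M libraries and 2.23, 2.01 and 1.97 in fresh libraries. The fresh values lay close together, and 10 of 12 vitrified libraries stood above all of them (log2 fold change 0.95, SE 0.40, adjusted p = 0.303, edgeR), with fresh counts of 5, 6 and 7. The remaining members of the complex, DLD with 0.07, PDK1 with -0.29 and PDK3 with -0.13, had 95% intervals that included 0.

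**Figure D2:**
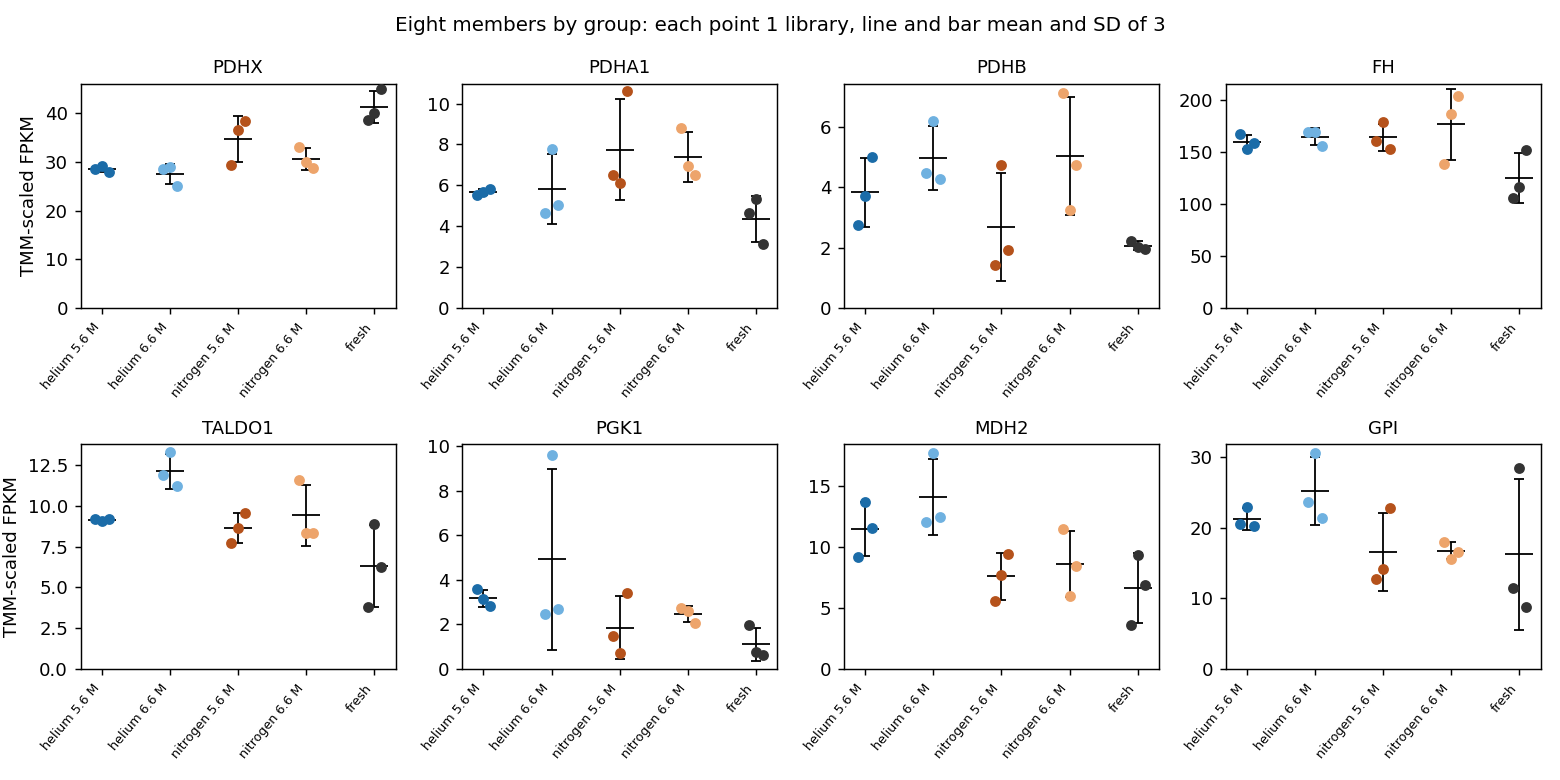
TMM-scaled FPKM of 8 members in the helium 5.6 M, helium 6.6 M, nitrogen 5.6 M, nitrogen 6.6 M and fresh libraries, from left to right; points are libraries, and lines with bars are the mean and SD of 3. For PDHX every vitrified point lies below the lowest fresh point, and for GPI the fresh points run from 8.72 to 28.5, library 2 being the high one.

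In the citrate cycle, FH (ENSBTAG00000021688, UMD3.1 chromosome 16, 36059726 to 36086821), the fumarase that hydrates fumarate to malate, measured 167, 153 and 159 scaled FPKM in helium 5.6 M libraries, 169.8, 169 and 156 in helium 6.6 M libraries, 161, 179 and 153 in nitrogen 5.6 M libraries, 139, 187 and 204 in nitrogen 6.6 M libraries and 106, 116 and 152 in fresh libraries. In 11 of 12 vitrified libraries it exceeded the highest fresh value (log2 fold change 0.41, SE 0.15, adjusted p = 0.218, edgeR; 95% interval 0.10 to 0.72). With depth class as a term FH had 0.22 (edgeR unadjusted p = 0.314). That term rests on nitrogen 6.6 M library 3, which held the highest FH value, 204 scaled FPKM. MDH2 (ENSBTAG00000009462, UMD3.1 chromosome 25, 34766932 to 34779637) measured 9.17, 13.6 and 11.5 scaled FPKM in helium 5.6 M libraries, 12.1, 17.7 and 12.5 in helium 6.6 M libraries, 5.57, 7.68 and 9.44 in nitrogen 5.6 M libraries, 11.4, 5.97 and 8.42 in nitrogen 6.6 M libraries and 3.62, 9.34 and 6.85 in fresh libraries. It averaged 10.4 ± 3.43 scaled FPKM in vitrified libraries and 6.60 ± 2.87 in fresh libraries (log2 fold change 0.57, SE 0.29, adjusted p = 0.396, edgeR), and fresh library 1 was the lowest of all. Without that library MDH2 had 0.36, and without fresh library 2 0.87. SUCLG1 (ENSBTAG00000006075, UMD3.1 chromosome 11, 50400445 to 50453412) measured 3.70, 3.49 and 3.62 scaled FPKM in helium 5.6 M libraries, 4.18, 4.03 and 5.05 in helium 6.6 M libraries, 3.69, 1.12 and 4.14 in nitrogen 5.6 M libraries, 4.03, 1.61 and 2.65 in nitrogen 6.6 M libraries and 2.64, 1.59 and 2.00 in fresh libraries; its 2 lowest vitrified values, 1.12 and 1.61, were in nitrogen libraries, and its log2 fold change was 0.71 (95% interval -0.13 to 1.56).

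IDH1 (ENSBTAG00000020527, UMD3.1 chromosome 2, 96941049 to 96962496) measured 24.7, 20.1 and 19.4 scaled FPKM in helium 5.6 M libraries, 22.4, 15.6 and 17.0 in helium 6.6 M libraries, 18.9, 21.1 and 12.6 in nitrogen 5.6 M libraries, 19.6, 22.4 and 19.8 in nitrogen 6.6 M libraries and 22.0, 16.4 and 10.1 in fresh libraries. Fresh library 3 was the lowest of the 15, and the groups overlapped (log2 fold change 0.29, SE 0.21, adjusted p = 0.606, edgeR). The value rested on the fresh libraries, at 0.61 without library 1 and 0.04 without library 3. CS ranged over 394 to 935 scaled FPKM in vitrified libraries and was 412, 345 and 1002 in fresh libraries, with fresh library 3 the highest and fresh library 2 the lowest of all 15, and had a log2 fold change of -0.02 (95% interval -0.58 to 0.53). The 3 tested members ACO1, IDH3A and SUCLA2 had -0.01, 0.02 and 0.16, SUCLG2 -0.12 and MDH1 -0.36. For IDH3A the 95% interval was -0.30 to 0.34 and for SUCLG2 -0.42 to 0.18.

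In the pentose phosphate pathway, TALDO1 (ENSBTAG00000010336, UMD3.1 chromosome 29, 50856122 to 50863486) measured 9.18, 9.09 and 9.22 scaled FPKM in helium 5.6 M libraries, 11.9, 13.3 and 11.2 in helium 6.6 M libraries, 7.73, 8.62 and 9.60 in nitrogen 5.6 M libraries, 11.6, 8.34 and 8.35 in nitrogen 6.6 M libraries and 3.81, 8.88 and 6.25 in fresh libraries. It averaged 9.84 ± 1.73 scaled FPKM in vitrified libraries and 6.31 ± 2.54 in fresh libraries (log2 fold change 0.60, SE 0.23, adjusted p = 0.253, edgeR), and fresh library 2 lay within the vitrified range. RPIA was 528 to 749 scaled FPKM in vitrified libraries and 630.4, 675 and 812 in fresh libraries, a log2 fold change of -0.15 (95% interval -0.47 to 0.17). PGD had 0.04 (95% interval -0.41 to 0.49) and PGLS 0.25, with 0, 12 and 4 counts in the fresh libraries.

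In glycolysis, PGK1 (ENSBTAG00000000894, UMD3.1 chromosome X, 79282708 to 79305386) measured 3.58, 3.12 and 2.81 scaled FPKM in helium 5.6 M libraries, 2.45, 9.61 and 2.68 in helium 6.6 M libraries, 1.46, 0.696 and 3.42 in nitrogen 5.6 M libraries, 2.75, 2.59 and 2.06 in nitrogen 6.6 M libraries and 1.97, 0.740 and 0.621 in fresh libraries. Its log2 fold change was the largest of the 28 (log2 fold change 1.46, SE 0.59, adjusted p = 0.276, edgeR), but fresh libraries held 6, 3 and 3 counts of it, and helium 6.6 M library 2 held the highest value. Without that library it was 1.23. The other 7 tested glycolytic members had log2 fold changes of -0.06 for HK1 to 0.55 for TPI1, and all 7 intervals included 0. GPI was 12.7 to 30.6 scaled FPKM in vitrified libraries and 11.5, 28.5 and 8.72 in fresh ones (log2 fold change 0.27, SE 0.26, adjusted p = 0.729, edgeR).

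Fresh library 2 decided the call for GPI. Without it GPI passed in vitrified oocytes with a log2 fold change of 0.96 (edgeR adjusted p = 0.0435), and the count of members went to 1. The share of all genes called without that library is not given here. The cumulus and granulosa markers summed to 537 CPM in that library, against 393 and 389 CPM in fresh libraries 1 and 3. Marker CPM are not TMM-scaled, whereas the GPI values are. TMM scaling divides fresh libraries 1, 2 and 3 by further factors of 0.938, 1.22 and 0.843. On that scale fresh library 2 did not have the highest cumulus and granulosa sum of the 3. Of these markers STAR was at 283 CPM there, against 140 and 153 CPM, while HAS2 was at 117 CPM, against 117 and 126.5 CPM, and TIMP1 at 0. The oocyte markers were also higher in that library, at 10415 CPM against 5297 and 6073 CPM. The part of either list in the result was not tested.

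**Figure D3:**
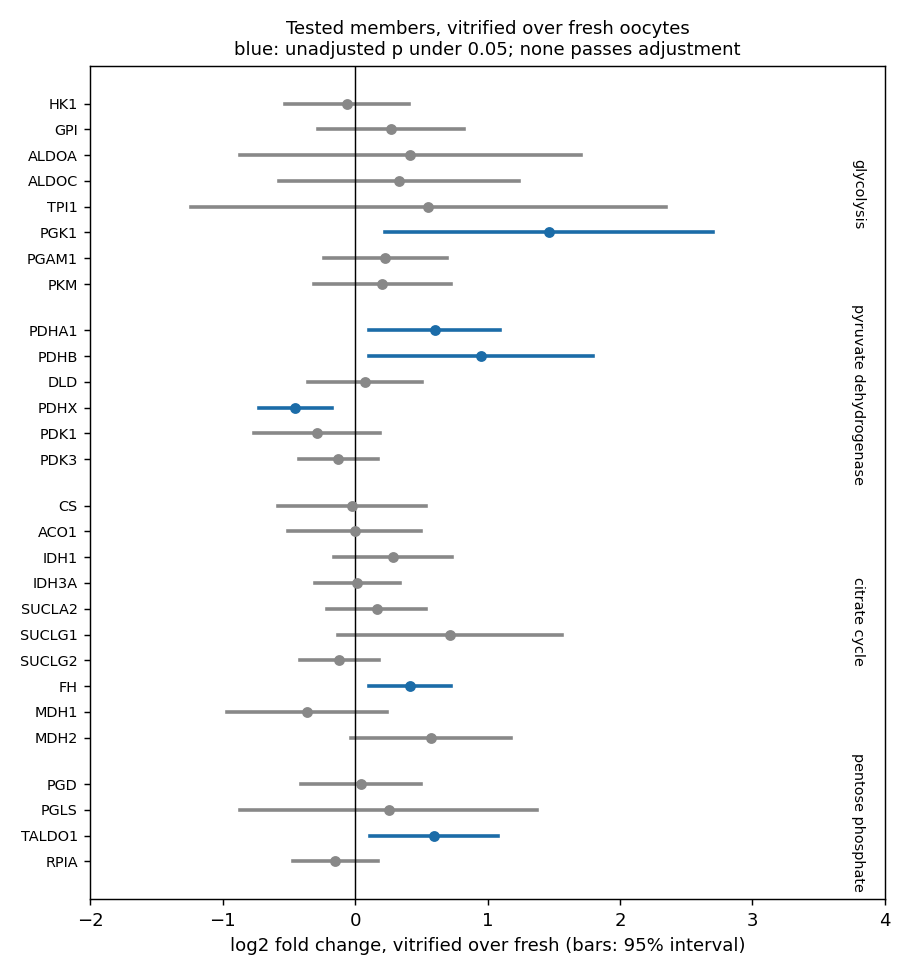
Log2 fold change of the 28 tested members in vitrified over fresh oocytes with 95% intervals, by pathway; blue marks an unadjusted p under 0.05 and grey the others. PDHX at -0.45 is the only blue member below 0, and the widest intervals belong to TPI1, ALDOA and PGK1, members with few counts in fresh libraries.

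Taken group by group against fresh oocytes, 0 of the 28 members passed in any of the 4 comparisons by edgeR. In helium 5.6 M oocytes edgeR called 0.474% of all genes, and 3 members had an unadjusted p under 0.05, 10.7% against 14.1% of all genes. They were PDHX (-0.53, adjusted p = 0.15), PGK1 (1.62, adjusted p = 0.256) and MDH2 (0.76, adjusted p = 0.307). DESeq2 called PDHX (adjusted p = 0.0290) beside 3.6% of the 6477 genes to which it gave an adjusted p. It gave none to ALDOA, ALDOC, TPI1, PGK1, PDHB, SUCLG1, MDH1 and PGLS. No overlap with the fresh libraries was seen for 8 members, PDHX lower and PDHB, FH, PGK1, TPI1, TALDO1, PDHA1 and SUCLG1 higher, beside 18.1% of all genes. Of these TPI1 had enough counts for testing only through helium libraries, and PDHB, PGK1 and SUCLG1 only through vitrified libraries. Their higher direction was favoured by that filter and adds no support to the count of 8. The median of the members was 0.13, and over all genes 0.00; without fresh library 1 it was 0.06 and without fresh library 2 it was 0.37.

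Of the 4 groups, helium 6.6 M oocytes had the largest number of members at an unadjusted p under 0.05 and the largest median, though differences between vitrified groups were tested only in the coolant, concentration and interaction comparisons. EdgeR called 0.628% of all genes there, and 8 members had such a p, 28.6% against 15.4% of all genes. PGK1 had a log2 fold change of 2.25 (adjusted p = 0.0964), TALDO1 0.92 (0.115), MDH2 1.06 (0.137), PDHB 1.27 (0.172) and SUCLG1 1.11 (0.227). FH had 0.40 (0.299), ALDOA 1.37 (0.323) and PDHX -0.59 (0.112), all adjusted by edgeR over all genes. DESeq2 called 3 members, PDHX lower (adjusted p = 0.0156), PGK1 higher (0.0242) and TALDO1 higher (0.0369), where it called 3.35% of 7621 genes. ALDOA, ALDOC, TPI1 and PGLS were given no adjusted p by it. The median of the members was 0.34, against -0.02 over all genes, with 22 of 28 above 0 and 7 not overlapping with fresh libraries, where 16.3% of all genes did not overlap. PGK1, PDHB, SUCLG1 and ALDOA had enough counts for testing only through vitrified libraries, so their higher direction was favoured by that filter.

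These values rest in part on single libraries. Without fresh library 2, edgeR called 5 members in helium 6.6 M oocytes, GPI (1.31), TALDO1 (1.20), MDH2 (1.34) and PGAM1 (0.89) higher and PDHX (-0.63) lower, and 1 member in helium 5.6 M oocytes, GPI (1.08). The share of all genes called in those fits is not given here, so the counts cannot be read as particular to the members. Without helium 6.6 M library 2, 0 passed, PGK1 had a log2 fold change of 1.31 and ALDOA one of 0.24. The median over the 28 members was then 0.20, with 19 above 0, and over the 8 glycolytic members 0.41 in helium 6.6 M oocytes, against 0.34 and 0.60 with it.

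In nitrogen 5.6 M oocytes edgeR called 0.0118% of all genes and DESeq2 0.663% of 4677 genes, neither with a member among them. DESeq2 gave no adjusted p to HK1, ALDOA, ALDOC, TPI1, PGK1, PDHB, PDK1, ACO1, SUCLG1, MDH1, MDH2, PGLS and TALDO1, so it could not call these. An unadjusted p under 0.05 was reached by 2 members, 7.14% against 6.74% of all genes, PDHA1 (0.83, adjusted p = 0.597) and FH (0.39, 0.723). The median of the members was -0.02, beside -0.05 over all genes, and 3 members did not overlap with fresh libraries, FH and PDHA1 higher and PDHX lower, beside 9.26% of genes. In nitrogen 6.6 M oocytes edgeR called 0.0474% of genes and DESeq2 0.67% of 7458 genes, again with no member. ALDOA, ALDOC, TPI1, SUCLG1 and PGLS had no adjusted p from DESeq2. An unadjusted p under 0.05 was reached by 5 members, 17.9% against 8.23% of all genes: FH (0.50), PDHB (1.26) and PDHA1 (0.76) higher and PDK1 (-0.81) and PDHX (-0.44) lower, with adjusted p of 0.416 to 0.472. Among the 28 members 5 did not overlap, PDHB, PGK1 and PDHA1 higher and PDK1 and PDHX lower, beside 9.31% of genes, and the median was 0.12, beside -0.03. PDHB and PGK1 had enough counts for testing only through vitrified libraries, so their higher direction was favoured by that filter.

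PDK1 (ENSBTAG00000016836, UMD3.1 chromosome 2, 24067475 to 24107467), the kinase, measured 5.17, 6.79 and 7.87 scaled FPKM in helium 5.6 M libraries, 6.19, 6.13 and 6.57 in helium 6.6 M libraries, 7.14, 5.69 and 5.24 in nitrogen 5.6 M libraries, 2.75, 3.67 and 4.70 in nitrogen 6.6 M libraries and 5.63, 7.57 and 7.10 in fresh libraries. The 3 nitrogen 6.6 M libraries held the lowest values of all 15.

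Between coolants, taken over both concentrations, all 8 tested glycolytic members had a log2 fold change above 0 in helium over nitrogen oocytes, at a median of 0.49 and a range of 0.17 to 1.52. The top of that range is TPI1, which had enough counts for testing only through helium libraries. Its direction was favoured by that filter and adds no support to the count of 8. The 4 pentose phosphate members were also all above 0, at a median of 0.17, while 3 of 6 of the pyruvate dehydrogenase complex and 6 of 10 of the citrate cycle were, and the median over all genes was 0.03. Of the pentose phosphate members PGLS too had enough counts for testing only through helium libraries, so its direction was favoured in the same way. Over all 28 members the median was 0.20 and 21 were above 0. No member passed edgeR, which called 0.663% of genes, or DESeq2, which called 2.77%. An unadjusted p under 0.05 was reached by 6 members, all higher in helium, 21.4% against 16% of all genes. On deposited FPKM, which carries no TMM scaling, the median of all genes was 0.12 with a pseudocount of 1 and 0.14 with one of 0.1, and the 8 glycolytic members were above 0 under each of the 4 scalings tried, at medians of 0.48 to 0.58.

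MDH2 was 9.17 to 17.7 scaled FPKM in the 6 helium libraries (median 12.3), against 5.57 to 11.4 in the 6 nitrogen libraries (median 8.05) (log2 fold change 0.67, SE 0.22, adjusted p = 0.156, edgeR). The lowest helium value, 9.17, lay within the nitrogen range. TPI1 was 1.14 to 7.69 scaled FPKM in the 6 helium libraries (median 2.54), against 0 to 2.77 in the 6 nitrogen libraries (median 0.985) (log2 fold change 1.52, SE 0.61, adjusted p = 0.232, edgeR). It entered testing only through its counts in helium libraries, so this direction was favoured in advance. In each library TPI1 read 2.95, 1.75 and 2.21 scaled FPKM in helium 5.6 M libraries, 1.14, 7.69 and 2.86 in helium 6.6 M libraries, 0.675, 0 and 2.77 in nitrogen 5.6 M libraries, 2.43, 1.29 and 0.334 in nitrogen 6.6 M libraries and 0, 1.60 and 1.68 in fresh libraries. PGK1 was 2.45 to 9.61 scaled FPKM in the 6 helium libraries (median 2.96), against 0.696 to 3.42 in the 6 nitrogen libraries (median 2.32) (log2 fold change 0.94, SE 0.38, adjusted p = 0.238, edgeR). The other members with an unadjusted p under 0.05 were PKM (0.50), GPI (0.48) and PDK1 (0.40).

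Helium 6.6 M library 2 stood apart in this comparison. It held the highest value of the 15 libraries for 12 of the 28 members, 42.9% against 10.7% of all tested genes, and for 7 of the 8 glycolytic ones. The cumulus and granulosa markers summed to 654 CPM there, and TIMP1 was at 130 CPM, TNFAIP6 at 30.8 CPM and VIM at 16.8 CPM, against at most 12.9, 9.28 and 2.71 CPM in the other 14 libraries. CYP11A1, INHA, FST, SERPINE2, PTX3 and AMH were also highest of the 15 libraries there, at 6.37, 4.49, 4.78, 61.8, 6.23 and 0.579 CPM. Some other markers of that list did not follow. HAS2 was at 83.5 CPM, the lowest of the 15 libraries, and STAR at 191 CPM, below the 283 CPM of fresh library 2. PTGS2, VCAN and CD44 lay within the range of the other libraries. The oocyte markers also summed highest in helium 6.6 M library 2, at 10533 CPM without TMM scaling, against 10248 CPM in helium 6.6 M library 1. The TMM factors that divide these libraries were 1.12 and 1.01, so with scaling library 2 was not the highest. The part of either list in the coolant result was not tested. Without that library the 8 glycolytic members were still above 0, at a median of 0.32, and 2 members in place of 6 had an unadjusted p under 0.05. MDH2 was then 0.57, TPI1 1.04 and PGK1 0.47. Depth also went with the coolant: all 6 helium libraries but only 1 nitrogen library, which held 8.42 scaled FPKM of MDH2 and 2.06 of PGK1, were above 4000000 counts. A fit with depth class as a term rests on that library; it gave MDH2 0.69, PGK1 1.23 and TPI1 3.49, with 0 members passing. In that fit 7 of the 8 glycolytic members were above 0, at a median of 1.02, and ALDOC had -0.51. Beyond that library coolant and depth cannot be told apart.

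**Figure D4:**
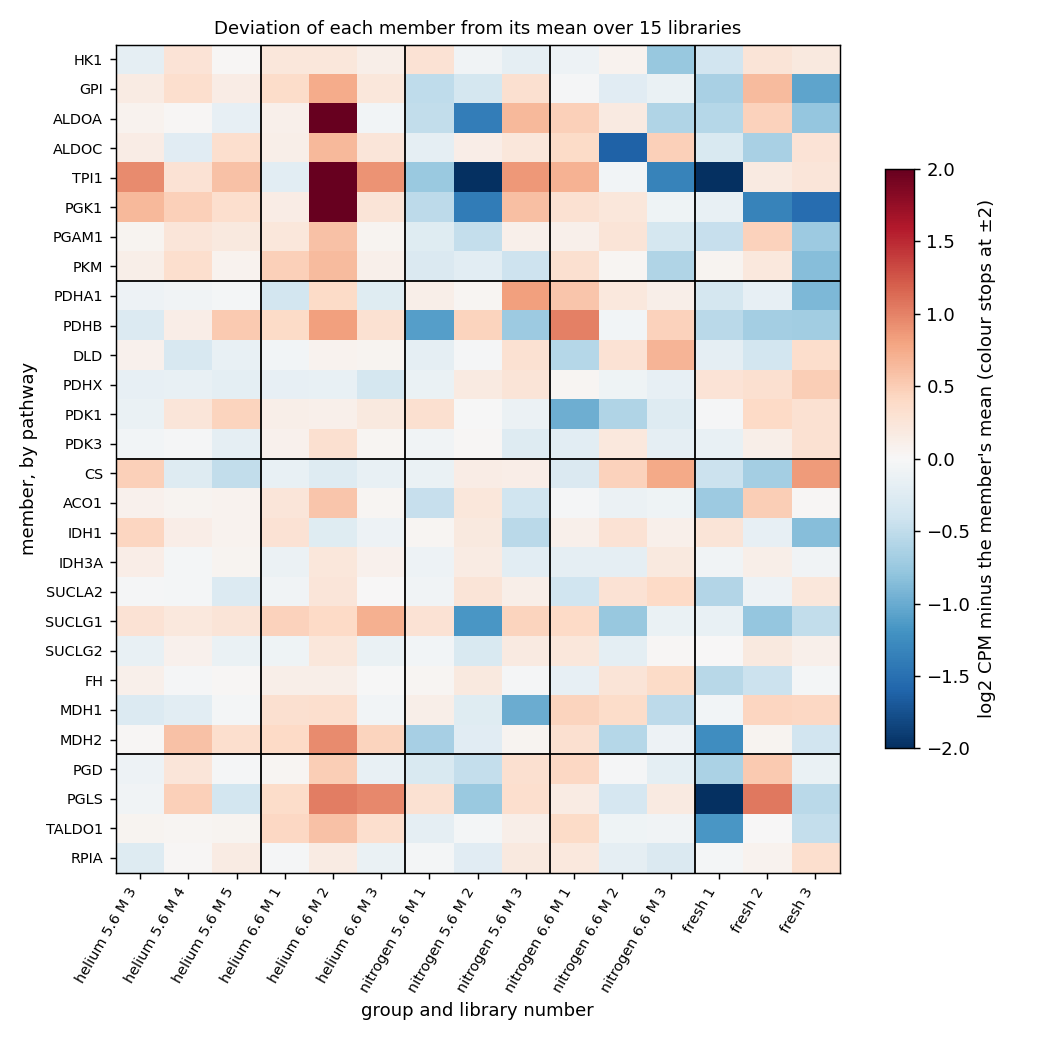
Log2 CPM of the 28 tested members in each library minus the member's mean over the 15 libraries, with groups separated by vertical lines and pathways by horizontal lines; red is above and blue below the mean. Helium 6.6 M library 2 is red for nearly all glycolytic members, and fresh library 2 is red while fresh libraries 1 and 3 are blue for GPI and PGAM1.

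The 4 rows known by description alone were compared in the same fit. The glyceraldehyde-3-phosphate dehydrogenase row measured 60.9, 69.9 and 60.6 scaled FPKM in helium 5.6 M libraries, 54.4, 92.8 and 53.0 in helium 6.6 M libraries, 32.9, 36.7 and 45.6 in nitrogen 5.6 M libraries, 47.7, 39.6 and 39.2 in nitrogen 6.6 M libraries and 26.6, 55.2 and 29.9 in fresh libraries. The 6 helium values all lay above the 6 nitrogen values (log2 fold change 0.70, SE 0.18, adjusted p = 0.0757, edgeR). The alpha-enolase row had a log2 fold change of 1.06 in helium over nitrogen (adjusted p = 0.119, edgeR), and the acetyltransferase and epimerase rows 0.13 and 0.04. Helium 6.6 M library 2 held the highest value of the first 2 rows. For alpha-enolase it was 10.2 scaled FPKM, against 4.87 and 5.35 in the other helium 6.6 M libraries and 3.19 to 5.59 in helium 5.6 M libraries. Nitrogen libraries held 1.01 to 3.96. These rows were not fitted without that helium library. In vitrified over fresh oocytes the 4 rows had 0.45 for glyceraldehyde-3-phosphate dehydrogenase, -0.08 for alpha-enolase, 0.04 for the acetyltransferase and -0.22 for the epimerase, none of them passing.

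Between cryoprotectant concentrations no member passed. EdgeR called 0 of 8441 genes in 6.6 M over 5.6 M oocytes, 0%, and DESeq2 likewise 0%, while 2.24% of genes and 1 member, 3.57%, had an unadjusted p under 0.05. That member was PDHB, with 5.01 ± 1.40 scaled FPKM in 6.6 M oocytes and 3.26 ± 1.47 in 5.6 M oocytes (SD, n = 6 each; log2 fold change 0.63, SE 0.28, adjusted p = 1.00, edgeR). PDK1 averaged 5.00 ± 1.55 scaled FPKM in 6.6 M oocytes and 6.32 ± 1.11 in 5.6 M oocytes (log2 fold change -0.35, 95% interval -0.75 to 0.05). MDH1 measured 4.03, 4.19 and 4.76 scaled FPKM in helium 5.6 M libraries, 6.19, 6.27 and 4.72 in helium 6.6 M libraries, 5.34, 4.10 and 2.29 in nitrogen 5.6 M libraries, 6.81, 6.40 and 3.30 in nitrogen 6.6 M libraries and 4.74, 6.73 and 6.64 in fresh libraries. It averaged 5.61 ± 1.34 scaled FPKM in 6.6 M oocytes and 4.12 ± 1.03 in 5.6 M oocytes (log2 fold change 0.39, 95% interval -0.12 to 0.90). The median of the members was 0.15 with 22 of 28 above 0, beside 0.01 over all genes. Without helium 6.6 M library 2 the median was 0.07 and 0 members had an unadjusted p under 0.05.

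No difference of the concentration effect between coolants was called: edgeR and DESeq2 each called 0% of genes, and 0 members had an unadjusted p under 0.05 where 2.1% of all genes did. PDK1 had the smallest p (helium minus nitrogen difference of log2 fold changes 0.58, 95% interval -0.22 to 1.38), followed by IDH1 (-0.45, -1.18 to 0.29) and HK1 (0.45, -0.33 to 1.24).

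Genes that feed or steer these pathways but are not members were also measured, 55 in the table and 25 of them tested. In vitrified over fresh oocytes 1 of the 25 passed edgeR, LDHC, the germ-cell lactate dehydrogenase, which was higher in vitrified libraries, at 118 to 189 scaled FPKM, than in fresh ones, at 59.8, 76.4 and 91.5 (log2 fold change 0.89, SE 0.18, adjusted p = 0.0315). Of all tested genes 0.509% passed there. The median of the 25 was 0.10, beside -0.03 over all genes. PFKFB2, which makes and removes the fructose bisphosphate that activates phosphofructokinase, averaged 9.16 ± 1.62 scaled FPKM in vitrified and 13.0 ± 1.25 in fresh libraries (log2 fold change -0.52, SE 0.15, adjusted p = 0.12, edgeR). TIGAR, a phosphatase that removes it, was 13.7 to 23.7 scaled FPKM in vitrified and 12.6, 17.0 and 8.63 in fresh libraries (log2 fold change 0.66, SE 0.23, adjusted p = 0.19, edgeR). MPC1, which carries pyruvate into mitochondria, was 97.0 to 152 scaled FPKM in vitrified and 60.6, 92.8 and 104 in fresh libraries (log2 fold change 0.42, SE 0.18, adjusted p = 0.288, edgeR). In helium over nitrogen oocytes 0 of the 25 passed, where 0.663% of all genes did. The smallest p belonged to PFKFB1, at 12.5 to 18.4 scaled FPKM in helium and 20.8 to 36.1 in nitrogen libraries (log2 fold change -0.69, SE 0.18, adjusted p = 0.0729, edgeR).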

How the data were processed

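The deposited table gives, per gene and library, whole-number counts and FPKM (fragments scaled to gene length and library size), 15 columns of each, as named in the file headers. The submitters' processing notes name the genome build UMD3.1 and the tools HISAT2 (2.0.4) and StringTie (1.3.0). The sources used here do not give how reads were counted or whether strand was used. Per the labels' protocols, RNA from single cells was amplified, with no molecular identifiers mentioned. All 180473 counts above 0 matched the deposited FPKM times gene length and library total within 0.1%, so the authors' FPKM hold no information beyond the counts and gene lengths. Of 24616 genes, 6062 have no symbol.

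From the counts, edgeR 4.0.16 (R 4.3.3) fitted group means over all 15 libraries by quasi-likelihood (TMM scaling, robust, default expression filter), with Benjamini-Hochberg adjustment over the 8441 tested genes and a threshold of 0.05. SE is the absolute log2 fold change divided by the root of F. Genes shown with every library were the 10 members with the smallest p for vitrified over fresh, the highest member of each enzyme family and the 3 with the smallest p for the coolant, concentration and interaction comparisons. Members and lists were chosen with earlier results of these data known. Alternatives were DESeq2 1.42.0, limma 3.58.1 on log2(FPKM + 1) or log2(FPKM + 0.1) for genes with mean FPKM of at least 1, other size factors, other filters, each library left out, a depth class and a replicate block. Added after seeing the data were the libraries under 4000000 counts alone and 2 libraries left out together. Scripts were tested on simulated counts. Library pairs within a group differed by more than sampling noise (chi-square per degree of freedom 6.23 to 34.7). Among the pairs of groups that share 3 library numbers, same-numbered libraries deviated together for all 3 only between helium 6.6 M and fresh oocytes (r = 0.147, 0.306 and 0.227). Helium 5.6 M oocytes share only number 3 with the other groups, and the labels do not say what a number marks.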

Additional observations from a re-analysis of the deposited data

How the results depend on the processing

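The number of members that passed, 0 in each of the 8 comparisons, was the same under 197 of 207 alternative settings, and the 10 exceptions all added members. With DESeq2 it was 1 for vitrified over fresh and 1 for helium 5.6 M over fresh (PDHX each) and 3 for helium 6.6 M over fresh. With no filter on low counts it was 1 for helium 6.6 M over fresh (PGK1) and 2 for helium over nitrogen (PGK1 and TPI1). Leaving out each library in turn gave 0 to 1 members for vitrified over fresh, 0 to 1 for helium 5.6 M over fresh and 0 to 5 for helium 6.6 M over fresh, all of the additions without fresh library 2. Without that library and helium 6.6 M library 2 together, a choice made after seeing the data, it was 1 for vitrified over fresh and 2 for helium 6.6 M over fresh. Apart from DESeq2, the share of all genes called under these settings is not given here. With the replicate block 0 members passed in every comparison. The cause of these changes was not tested. Among the members shown with every library for a small p, no log2 fold change changed sign under any alternative run: 492 of 495 values kept their side of the threshold and 3 came to pass it. The median of the members moved by more than 0.14 in 11 of 207 settings. It ran from -0.09 to 0.12 over the alternatives in nitrogen 5.6 M over fresh, and in the interaction from -0.08, without helium 6.6 M library 2, to 0.25. Among libraries under 4000000 counts, which compare 5 nitrogen libraries with the fresh ones and hold no helium library, it was 0.04. That fit gave no value for ALDOC, TPI1 and PGLS. It is not the same comparison as all vitrified over fresh oocytes. The whole nitrogen 5.6 M and 6.6 M groups had medians of -0.02 and 0.12 over fresh. Fresh libraries, at 1601519 to 2822837 counts, limit what can be seen of PGK1, TPI1, PDHB and PGLS, which had 0 to 12 counts there.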

Other observations

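A row without a symbol described as bisphosphoglycerate mutase (ENSBTAG00000008895), an enzyme that makes and breaks down the bisphosphoglycerate side product of glycolysis, had a higher mean level than any of the 40 named members. It measured 1053, 1223 and 1363 scaled FPKM in helium 5.6 M libraries, 1296, 1055 and 1068 in helium 6.6 M libraries, 795, 956 and 1024 in nitrogen 5.6 M libraries, 962, 1111 and 929 in nitrogen 6.6 M libraries and 609, 642 and 933 in fresh libraries. In 10 of 12 vitrified libraries it exceeded the highest fresh value (log2 fold change 0.55, SE 0.17, adjusted p = 0.149, edgeR), and between coolants the log2 fold change was 0.29 (adjusted p = 0.327). Several transcripts for taking up and shuttling fuel were plentiful. LDHA, which interconverts pyruvate and lactate, had 41.2 to 84.7 scaled FPKM, SLC16A1, a carrier of lactate and pyruvate, 55.8 to 77.5 and ME1, the cytosolic malic enzyme that forms NADPH, 40.1 to 65.7. SLC2A1, a glucose carrier, had 0.716 to 3.37 scaled FPKM. None of these 4 passed edgeR in vitrified over fresh oocytes, with log2 fold changes of 0.10 for LDHA, -0.12 for SLC16A1, -0.25 for ME1 and -0.40 for SLC2A1.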
